A study of Mus musculus with 54 samples.

Results

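Basement membranes are sheets of extracellular matrix that underlie epithelia, and 10 genes of their main proteins were followed here by RNA level in mouse embryonic stem cells given retinoic acid. The 10 genes were listed by symbol (Col4a1, Col4a2, Lama1, Lamb1, Lamc1, Nid1, Nid2, Sparc, Hspg2 and Serpinh1), as the typical output of parietal endoderm, and each matched 1 of the 55487 gene IDs in the count tables. All 10 had enough counts to be tested in both series of the study. RNA was measured with QuantSeq, which counts reads at the polyadenylated 3′ end of transcripts, in 54 libraries that form 18 groups of 3. In the Ezh2 series, per the labels, Ezh1-/-:Ezh2-/- cells carried a PiggyBac transgene for Ezh2 K510R;K514R:K515R (amKR, in which automethylated lysines are arginines), an empty PiggyBac vector (EV) or one for Ezh2 (WT). In the Suz12 series SUZ12-/- cells carried PiggyBac SUZ12-deltadim (ddim, a form made against dimerization of the complex), an empty vector (EV) or SUZ12 (WT). Ezh2 and Suz12 are core subunits of PRC2, the complex that methylates histone H3 lysine 27 and keeps developmental genes silent. Each line was sampled on day 0, in serum medium with LIF and 2 inhibitors, CHIR99021 and PD0325901, and on days 1 and 4 in 0.1 µM retinoic acid without them. By the labels every group, WT included, is a deletion line with a vector, and the labels do not say whether a line is a clone or whether the 3 libraries of a group are separate cultures.

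Collagen IV is the network-forming collagen of basement membranes, and its common protomer joins α1 and α2 chains encoded by Col4a1 and Col4a2. Lama1, Lamb1 and Lamc1 encode the α1, β1 and γ1 chains of laminin-111, the laminin of the early embryo, which assembles on the cell surface as the first layer. Nidogens (Nid1, Nid2) link laminin to collagen IV, perlecan (Hspg2) is a heparan sulfate proteoglycan of the same layer, Sparc is a collagen-binding glycoprotein and Serpinh1 is the collagen chaperone HSP47 of the endoplasmic reticulum. Parietal endoderm, which descends from primitive endoderm, secretes these proteins in bulk into Reichert's membrane of the rodent embryo, and retinoic acid drives cultured mouse embryonal carcinoma cells towards it.

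The collagen IV genes are shown first because they share a start. Col4a1 (ENSMUSG00000031502) lies on chromosome 8, 11198423 to 11312826, minus strand, and Col4a2 (ENSMUSG00000031503) on chromosome 8, 11312805 to 11449287, plus strand, in the GENCODE annotation of GRCm38. The 2 RefSeq starts face each other and overlap by 22 bases, shown in capitals in a 30-base window of RefSeq's GRCm38.p6.
Col4a2/Col4a1 starts, chr8:11312801-11312830 (plus strand): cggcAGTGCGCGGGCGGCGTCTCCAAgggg
The promoters of 4 other members follow. Of these, 3 (Lamb1, Nid1, Hspg2) were higher and 1 (Serpinh1) lower in libraries labelled EV of the Ezh2 series on day 0. Sparc was also lower there, and its promoter, with 0 matches to GGGCGG, is not printed. Each printed promoter is the stretch of the 250 bases before the RefSeq start that precedes the first annotated exon. GGGCGG or its complement CCGCCC is in capitals.
Lamb1 promoter, chr12:31265043-31265233 (plus strand): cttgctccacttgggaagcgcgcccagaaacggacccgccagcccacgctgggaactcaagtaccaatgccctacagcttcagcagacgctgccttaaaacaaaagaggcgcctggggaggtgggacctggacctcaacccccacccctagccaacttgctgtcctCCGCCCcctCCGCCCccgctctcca
Nid1 promoter, chr13:13437352-13437550 (plus strand): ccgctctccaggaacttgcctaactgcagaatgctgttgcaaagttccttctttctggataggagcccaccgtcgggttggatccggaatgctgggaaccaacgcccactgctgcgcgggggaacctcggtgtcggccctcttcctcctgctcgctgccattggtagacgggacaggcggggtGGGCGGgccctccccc
Hspg2 promoter, chr4:137468553-137468768 (plus strand): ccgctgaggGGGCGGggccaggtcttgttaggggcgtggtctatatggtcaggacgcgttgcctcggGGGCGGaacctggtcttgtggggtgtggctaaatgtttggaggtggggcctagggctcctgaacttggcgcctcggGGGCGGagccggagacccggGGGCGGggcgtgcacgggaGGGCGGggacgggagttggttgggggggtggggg
Serpinh1 promoter, chr7:99353240-99353489 (minus strand): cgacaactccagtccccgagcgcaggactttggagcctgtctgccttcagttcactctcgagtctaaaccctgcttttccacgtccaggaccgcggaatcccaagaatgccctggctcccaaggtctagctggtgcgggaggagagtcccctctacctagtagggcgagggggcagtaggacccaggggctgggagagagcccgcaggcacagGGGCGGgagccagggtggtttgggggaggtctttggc
RefSeq promoters matched 7 of the 10 members, and 4 motifs were searched on both strands of the 250 bases before each start. GGGCGG, the core of a GC box, was found in 5 of the 7, with 5 matches in Hspg2, 2 each in Lamb1 and Col4a2, and 1 each in Nid1 and Serpinh1, and 32.9% of 27025 mouse promoters hold it. CCAAT was found in 4 of the 7, against 34.5% of all promoters. GATAA, the core of a GATA factor site, was found in none of the 7 windows and in 23% of all promoters, and AGGTCA, a nuclear receptor motif, in none and in 13.8%. A match is a description of the sequence and shows no binding.

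The remaining members lie on chromosome 17 from 67697259 to 67822647 (Lama1), chromosome 12 from 31265234 to 31329644 (Lamb1), chromosome 1 from 153218922 to 153332786 (Lamc1), chromosome 13 from 13437551 to 13512269 (Nid1), chromosome 14 from 19751265 to 19811787 (Nid2), chromosome 11 from 55394500 to 55423183 (Sparc), chromosome 4 from 137468769 to 137570630 (Hspg2) and chromosome 7 from 99345376 to 99353239 (Serpinh1). Reads of QuantSeq fall at the 3′ end, and in the last 2000 bases Nid2 overlaps Rtraf on the other strand, which averaged 237 CPM. The strand setting of the counting is not given in the sources used here, so Nid2 values are uncertain.

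Libraries held 4223028 to 5111007 gene counts (Ezh2 series) and 3801446 to 4462441 (Suz12 series). Levels are in CPM, counts set against scaled library size, and are compared between groups and not between genes. The targeted genes were checked first. Suz12 averaged 68.1 CPM in EV and 439 CPM in WT cells on day 0, 52.9 and 97.1 CPM on day 1, and 31.5 and 56.7 CPM on day 4. Ezh2 averaged 117 CPM in amKR and 88.3 CPM in WT cells on day 0 (log2 0.40 ± 0.11, edgeR adjusted p = 0.0303). Ezh1 averaged 9.29 CPM on day 0 in libraries labelled EV of the Ezh2 series, 0.148 CPM in WT and 0.289 CPM in amKR. All 3 lines carry the same deletions by their labels. On days 1 and 4 Ezh1 averaged 6.37 and 5.58 CPM in libraries labelled EV. It averaged 0 and 0.2 CPM in WT and 0.0738 and 0.0663 CPM in amKR on these days. Ezh2 averaged 183 CPM in libraries labelled EV and 88.3 CPM in WT on day 0. Such levels would not be looked for in Ezh1-/-:Ezh2-/- cells with an empty vector. Reads at the 3′ end do not show whether a transcript is intact, so these counts do not settle the genotype. These libraries are therefore called "labelled EV" throughout, and their genotype was not resolved further here.

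**Figure D1:**
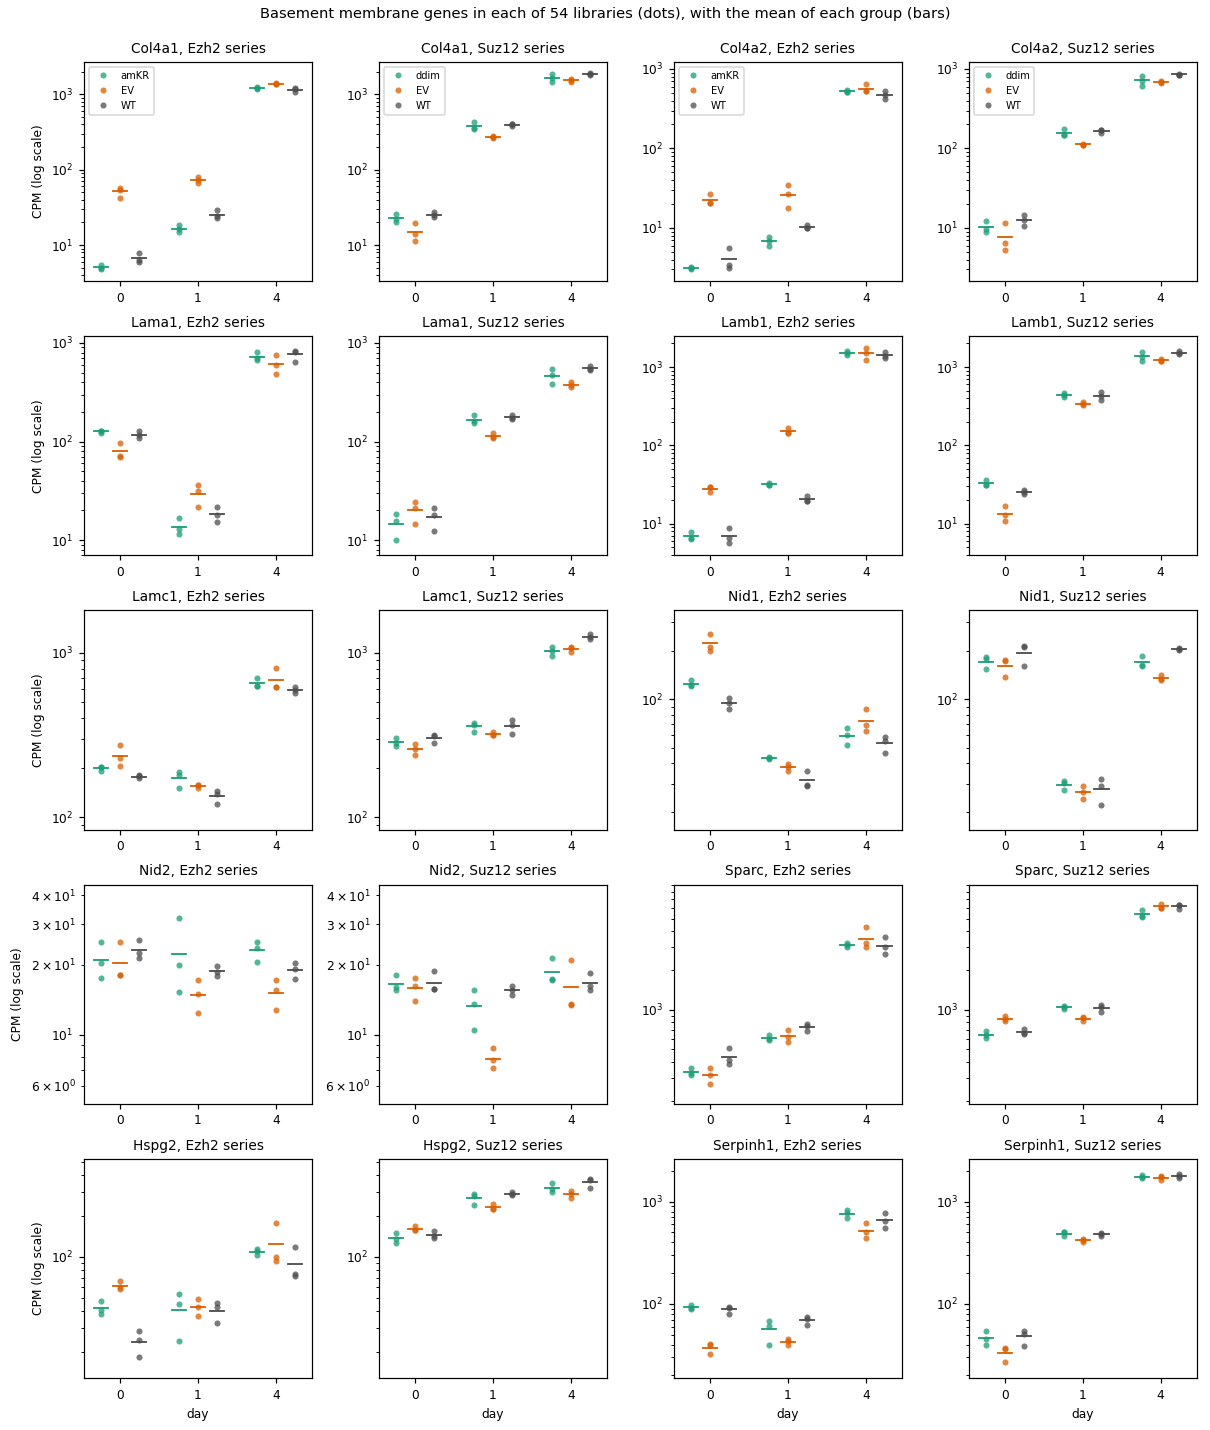
Level of each member in CPM (log axis) against day, for the Ezh2 and the Suz12 series, with 1 dot per library and a bar at the mean of each group of 3. Levels on day 4 lie above those on day 0 for 8 members in both WT lines, while Nid1 and Nid2 show no such rise.

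The time course asks what the members did when stem cell medium was replaced by retinoic acid. In WT cells of the Ezh2 series, 8 of the 10 members were higher on day 4 than on day 0 and Nid1 was lower, against 57% of all genes tested changed in either direction. In WT cells of the Suz12 series 8 members were higher and none lower. The share of all genes changed in either direction was 73.6%, and the members' count, taken in either direction, lies near it. Shares in either direction are not matched to the number of members that rose. The share of all genes higher on day 4 is not given for WT cells. In EV and ddim cells of the Suz12 series it was 38.3% and 37%. The median log2 change of the 10 was 2.77 and 4.11, and of all genes 0.01 and -0.01. The 10 genes together took 0.0978% ± 0.00239 of gene counts on day 0, 0.107% ± 0.00197 on day 1 and 0.832% ± 0.0676 on day 4 in Ezh2-series WT cells, and 0.141% ± 0.00165, 0.352% ± 0.0111 and 1.41% ± 0.0301 in Suz12-series WT cells (SD, n = 3 each). In such bulk samples a larger number of producing cells and more RNA per cell cannot be told apart.

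The collagen IV pair had some of the largest rises. Col4a1 had 6.01, 6.37 and 7.91 CPM on day 0, 24.5, 22.8 and 28.9 CPM on day 1 and 1059, 1224 and 1166 CPM on day 4 in Ezh2-series WT libraries. In the Suz12-series WT libraries it had 23.4, 25.4 and 27.6 CPM on day 0, 402, 407 and 381 CPM on day 1 and 1853, 1918 and 1819 CPM on day 4. No library of one day overlapped another day in either series, and day 1 already stood far above day 0 in the Suz12 series. The log2 change on day 4 against day 0 was 7.40 ± 0.15 (SE, 169-fold, adjusted p = 7.27e-28) and 6.19 ± 0.10 (73-fold, adjusted p = 6.25e-44). Col4a2 had 3.12, 3.41 and 5.65 CPM on day 0, 11, 9.91 and 9.87 CPM on day 1 and 420, 532 and 472 CPM on day 4 in the Ezh2 series. It had 10.7, 12.6 and 14.6 CPM, then 169, 171 and 156 CPM, then 874, 840 and 841 CPM on the same days in the Suz12 series. Its rise by day 4 was 116-fold and 67.2-fold. The ratio of Col4a1 to Col4a2 CPM stayed between 1.6 and 2.97 in the means of all 18 groups, while the mean level of Col4a1 itself ran from 5.06 to 1382 CPM over the groups of the Ezh2 series.

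Of the laminin-111 chains, Lamb1 rose as steeply as collagen IV. It had 8.9, 6.6 and 5.65 CPM on day 0, 19.6, 19.6 and 22.9 CPM on day 1 and 1300, 1577 and 1374 CPM on day 4 in Ezh2-series WT cells, a 200-fold rise (log2 7.64 ± 0.16). In Suz12-series WT cells it had 26.6, 24.1 and 25.8 CPM, then 479, 428 and 377 CPM, then 1603, 1508 and 1466 CPM, a 59.8-fold rise (log2 5.90 ± 0.11). The days did not overlap in either series. Lama1, the chain that is restricted to few tissues, moved in opposite directions by day 1. Ezh2-series WT cells had 116, 128 and 108 CPM of Lama1 on day 0, 17.8, 15.3 and 21.8 CPM on day 1 and 639, 837 and 817 CPM on day 4, so it fell to 0.156 of its day 0 level (log2 -2.68 ± 0.19, adjusted p = 2.52e-12) before it rose. Suz12-series WT cells had 21.2, 12.3 and 17.8 CPM on day 0, 184, 169 and 174 CPM on day 1 and 589, 550 and 530 CPM on day 4, so it was 10.3-fold higher on day 1 (log2 3.36 ± 0.18, adjusted p = 2.31e-13). Lamc1, the γ1 chain shared by most laminins, changed least of the 3. It had 180, 172 and 178 CPM on day 0, 144, 120 and 139 CPM on day 1 and 622, 594 and 569 CPM on day 4 in Ezh2-series WT cells. In Suz12-series WT cells it had 313, 315 and 284 CPM, 363, 390 and 321 CPM and 1296, 1249 and 1222 CPM. The rise by day 4 was 3.37-fold and 4.13-fold.

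The nidogens did not follow the other members. Nid1 had 94.6, 87.1 and 102 CPM on day 0, 28.8, 29.5 and 36.1 CPM on day 1 and 54.8, 46.7 and 58.1 CPM on day 4 in Ezh2-series WT cells. In Suz12-series WT cells it had 213, 210 and 160 CPM, 29.0, 22.2 and 32.1 CPM and 202, 207 and 204 CPM on the same days. Day 1 was the lowest day in both. On day 4 it was lower than on day 0 in the Ezh2 series (log2 -0.83 ± 0.12, adjusted p = 1.01e-06), and in the Suz12 series the change was 0.07 ± 0.09 (adjusted p = 0.495). Nid2 stayed between 7.18 and 31.7 CPM in all 54 libraries and passed no test over time in WT cells, with a log2 change on day 4 of -0.29 ± 0.20 (Ezh2 series) and 0.00 ± 0.18 (Suz12 series).

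Sparc, the collagen-binding glycoprotein, had 383, 508 and 410 CPM on day 0, 774, 691 and 749 CPM on day 1 and 2652, 3603 and 3047 CPM on day 4 in Ezh2-series WT cells, a 7.15-fold rise. In Suz12-series WT cells it had 651, 664 and 707 CPM, 1057, 1079 and 963 CPM and 6297, 6396 and 5954 CPM, a 9.22-fold rise. Each day lay above the one before in both series. The chaperone Serpinh1 had 91.9, 79.2 and 93.6 CPM on day 0, 71, 74.1 and 62.6 CPM on day 1 and 768, 645 and 549 CPM on day 4 in Ezh2-series WT cells. In Suz12-series WT cells it had 50.8, 38.5 and 54.7 CPM, 491, 487 and 465 CPM and 1774, 1872 and 1710 CPM. The rise by day 4 was 7.41-fold and 37.2-fold, and on day 1 Serpinh1 had risen in the Suz12 series (10-fold, adjusted p = 1.92e-38), while the Ezh2 series gave a log2 change of -0.35 ± 0.15 (adjusted p = 0.0572). Hspg2, perlecan, had 24.3, 18.4 and 28.3 CPM on day 0, 42.5, 45.9 and 32.7 CPM on day 1 and 119, 72.1 and 75.4 CPM on day 4 in Ezh2-series WT cells, and 154, 143 and 138 CPM, 286, 299 and 291 CPM and 376, 365 and 319 CPM in Suz12-series WT cells. Its rise by day 4 was 3.75-fold and 2.44-fold. The day 1 call of Hspg2 in the Ezh2 series (log2 0.77 ± 0.28) ended without any of 4 libraries in turn, with values of 0.80 and 0.62 without day 0 replicates 1 and 2, and 0.75 and 0.68 without day 1 replicates 1 and 2.

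**Figure D2:**
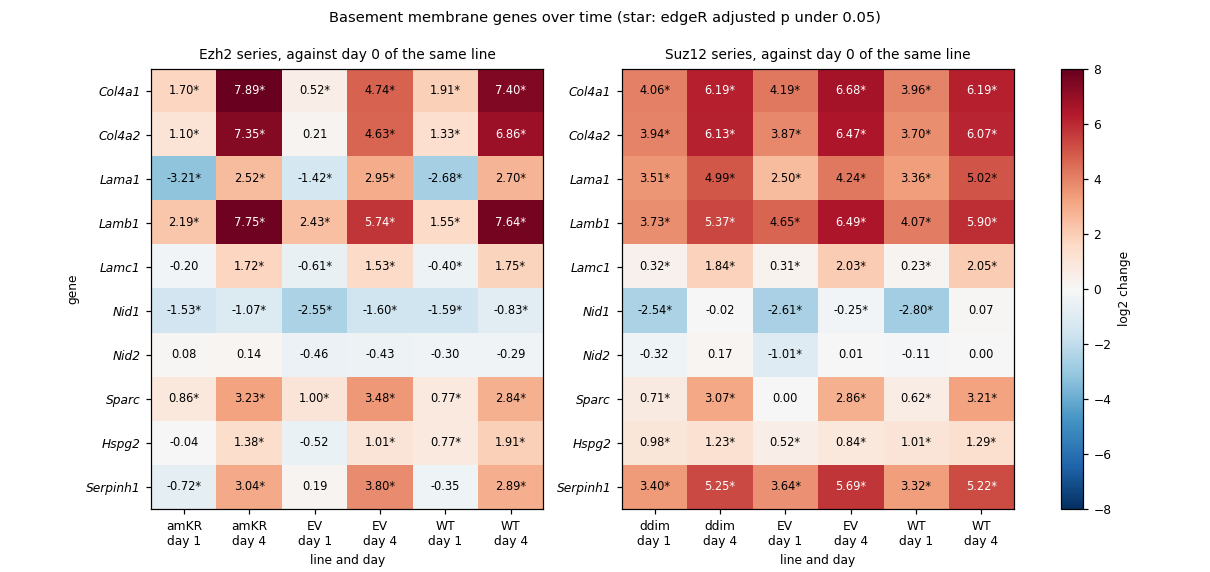
Log2 change of each member on days 1 and 4 against day 0 of the same line, with a star where the edgeR adjusted p is under 0.05. Day 4 columns are positive for 8 members in every line of both series, and Lama1 is negative on day 1 in every Ezh2-series line and positive in every Suz12-series line.

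Empty-vector and mutant lines were read the same way over 4 days. In each of them 8 members were higher on day 4 than on day 0 in libraries labelled EV and amKR libraries of the Ezh2 series and in EV and ddim cells of the Suz12 series, while 30.1%, 31.6%, 38.3% and 37% of all genes were higher. The rise of Col4a1 was 4.74 ± 0.12 on the log2 scale in libraries labelled EV, which began from a higher day 0 level, against 7.40 ± 0.15 in WT. In EV cells of the Suz12 series it was 6.68 ± 0.11, against 6.19 ± 0.10 in WT. Ranked by group mean, the 3 day 4 groups of the Ezh2 series were the 3 highest for 8 members. In the order for Col4a1, the libraries labelled EV on day 4 (1382 CPM) came first and stood apart from amKR (1210 CPM), which overlapped WT (1150 CPM). The Suz12 series had its 3 day 4 groups on top for 7 members. Hspg2 had 2 of them there, and neighbours in its order overlapped in 6 of 8 pairs. Nid1 and Nid2 had from 0 to 2 day 4 groups among the 3 highest, and neighbours of Nid2 overlapped in 7 of 8 pairs in both series.

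The WT lines of the 2 series differed on day 1. On day 1, 5 members were higher and 3 lower than on day 0 in Ezh2-series WT cells (46.5% of all genes changed in either direction), and 8 were higher and 1 lower in Suz12-series WT cells (61.9%). Day 1 levels of Col4a1 were 2.21% of the day 4 mean in Ezh2-series WT cells and 21.3% in Suz12-series WT cells. The same figures were 2.39% and 31.6% for Lama1, 1.46% and 28.1% for Lamb1, and 10.6% and 27.0% for Serpinh1. In a fit of all 54 libraries, the signed log2 change from day 0 to day 1 was lower in the Ezh2 series for 6 members and higher for Nid1, against 51.4% of all genes that differed in either direction. The difference was -6.03 ± 0.28 (log2, SE) for Lama1, -3.66 ± 0.19 for Serpinh1, -2.51 ± 0.23 for Lamb1, -2.36 ± 0.32 for Col4a2 and -2.04 ± 0.21 for Col4a1. By day 4 the change since day 0 was higher in the Ezh2 series for Lamb1 (1.69 ± 0.20) and Col4a1 (1.16 ± 0.19) and lower for Serpinh1 (-2.38 ± 0.18) and Lama1 (-2.37 ± 0.25), and 38.1% of all genes differed in either direction. The series differ in the parental deletion line and may differ in other ways, so line and series cannot be told apart. A list of 8 housekeeping genes also moved unlike between the series. Its summed level averaged 4843, 11700 and 13624 CPM on days 0, 1 and 4 in Ezh2-series WT cells. In Suz12-series WT cells it averaged 11178, 10707 and 12781 CPM. Its bearing on the members' differences between series was not tested.

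**Figure D3:**
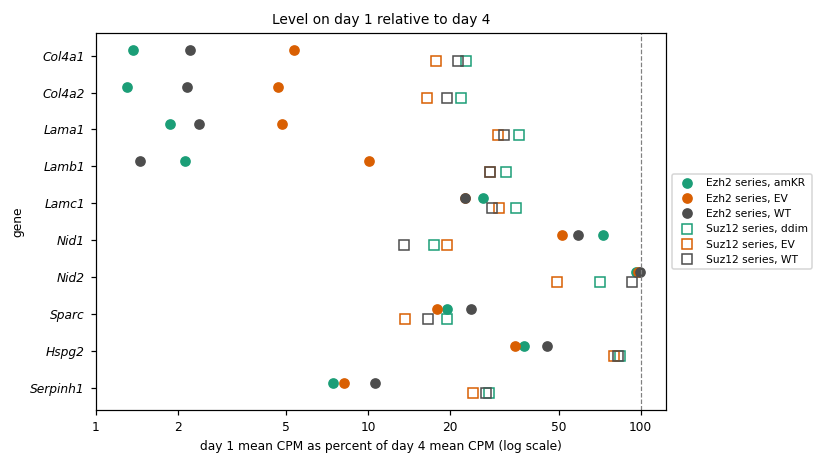
Mean CPM on day 1 as percent of the mean on day 4 (log axis), with 1 mark per line for each member, filled for the Ezh2 series and open for the Suz12 series. The Ezh2-series WT marks of Col4a1, Col4a2, Lama1 and Lamb1 lie between 1.46% and 2.39%. Over all lines, the marks of these genes lie between 1.3% and 10.1% in the Ezh2 series and between 16.5% and 35.8% in the Suz12 series. The highest Ezh2-series mark is that of Lamb1 in libraries labelled EV.

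By its labels, empty vector against WT in the Ezh2 series compares cells without and with an Ezh2 transgene, but the libraries labelled EV held more Ezh2 than WT on days 0 and 4, and Ezh1, so the contrast is given as one between labelled lines only. On day 0, 6 members were higher and 3 lower in libraries labelled EV, against 29.3% of all genes called in either direction. Col4a1 had 57.7, 42.4 and 54.6 CPM in libraries labelled EV, against 6.01, 6.37 and 7.91 CPM in WT, a 7.6-fold difference (log2 2.93 ± 0.14, adjusted p = 2.41e-16). Col4a2 had 20.7, 20.7 and 26.8 CPM, against 3.12, 3.41 and 5.65 CPM in WT (5.58-fold). For both collagen genes every library labelled EV lay above every WT library. Lamb1 had 25.6, 29.7 and 29.2 CPM in libraries labelled EV and 8.9, 6.6 and 5.65 CPM in WT (3.98-fold), Hspg2 had 58.2, 66.2 and 59.8 CPM and 24.3, 18.4 and 28.3 CPM in WT (2.59-fold), and Nid1 had 254, 212 and 200 CPM and 94.6, 87.1 and 102 CPM in WT (2.34-fold). These 3 did not overlap either, and 22.6% of all genes were higher with no overlap. Serpinh1 went the other way, with 40.7, 39.3 and 32 CPM in libraries labelled EV and 91.9, 79.2 and 93.6 CPM in WT (log2 -1.24 ± 0.16, adjusted p = 5.39e-07). Lamc1 (log2 0.41 ± 0.11), Lama1 (-0.57 ± 0.16) and Sparc (-0.46 ± 0.13) were called with smaller differences, and each of these calls ended when 1 library was left out. Lamc1 was 0.30 without EV replicate 1, Lama1 was -0.48 without EV replicate 1 and -0.50 without WT replicate 2, and Sparc was -0.36 and -0.33 without the same 2 libraries.

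On day 1, 4 members were higher and Serpinh1 was lower in libraries labelled EV of the Ezh2 series, against 20.9% of all genes. Lamb1 had 146, 142 and 167 CPM, against 19.6, 19.6 and 22.9 CPM in WT, a 7.32-fold difference (log2 2.87 ± 0.14, adjusted p = 7.02e-17). Col4a1 had 67.6, 73.9 and 79.7 CPM, against 24.5, 22.8 and 28.9 CPM in WT, and Col4a2 had 17.6, 27.1 and 34.2 CPM, against 11, 9.91 and 9.87 CPM in WT. The 3 genes did not overlap between the lines, and 22.8% of all genes were higher with no overlap. Lama1 was called higher (log2 0.70 ± 0.20), and this call ended without EV replicates 2 or 3 (0.60 and 0.53) or WT replicates 1 or 2 (0.63 and 0.54). By day 4, 1 member was called, against 17.8% of all genes. Nid1 had 86.7, 63.7 and 69.3 CPM in libraries labelled EV and 54.8, 46.7 and 58.1 CPM in WT (log2 0.46 ± 0.13, adjusted p = 0.00868), and 0.35 with no call without EV replicate 1. The log2 difference of Col4a1 on day 4 was 0.27 ± 0.10 (adjusted p = 0.0599), and with an offset for each chromosome it was 0.38 and called.

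The difference between lines therefore changed with time in the Ezh2 series. Tested as such, the EV difference on day 4 minus that on day 0 was -2.66 ± 0.18 (log2, SE) for Col4a1, -2.23 ± 0.26 for Col4a2 and -1.90 ± 0.20 for Lamb1, and 6 members changed in all, 2 up and 4 down, against 12.4% of all genes. By day 1 the EV difference of Col4a1 had changed by -1.39 ± 0.19 since day 0, and 4.35% of all genes had a changed difference. For Sparc, which changed by 0.64 ± 0.18, the call ended without EV day 0 replicate 1 (0.54), EV day 4 replicate 2 (0.49) or WT day 0 replicate 2 (0.51).

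In the Suz12 series most called members were lower in EV than in WT cells. On day 0, 5 members were lower and Sparc was higher in EV than in WT cells, against 10.8% of all genes called in either direction. On days 1 and 4, 7 members were lower and none higher, against 7.91% and 7.64%. The differences were small beside the time course. Col4a1 had 11.2, 14.2 and 19.5 CPM in EV and 23.4, 25.4 and 27.6 CPM in WT cells on day 0 (log2 -0.77 ± 0.15, adjusted p = 0.000191). On day 1 it had 284, 271 and 265 CPM in EV and 402, 407 and 381 CPM in WT (-0.54 ± 0.08), and on day 4 it had 1593, 1467 and 1537 CPM in EV and 1853, 1918 and 1819 CPM in WT (-0.28 ± 0.07). Overlap of EV and WT libraries is not read here, since the share of all genes without overlap is not given for this series. Lamb1 had 12.8, 10.7 and 17.0 CPM in EV and 26.6, 24.1 and 25.8 CPM in WT on day 0 (-0.92 ± 0.16), and -0.33 ± 0.08 was its difference on both later days. On day 1 Lama1 had 121, 110 and 109 CPM in EV and 184, 169 and 174 CPM in WT (-0.63 ± 0.14). On day 4 it had 378, 354 and 400 CPM in EV and 589, 550 and 530 CPM in WT (-0.56 ± 0.12). Nid1 was lower on day 4, with 131, 142 and 133 CPM in EV and 202, 207 and 204 CPM in WT (-0.59 ± 0.09). Nid2 was lower on day 1, with 8.72, 7.74 and 7.18 CPM in EV and 15.5, 16.2 and 14.8 CPM in WT (-0.97 ± 0.20, adjusted p = 0.000539).

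Sparc changed sign between days in the Suz12 series. It had 817, 841 and 897 CPM in EV and 651, 664 and 707 CPM in WT on day 0 (0.34 ± 0.06), and 824, 858 and 872 CPM in EV and 1057, 1079 and 963 CPM in WT on day 1 (-0.28 ± 0.06). It thus lay above WT on day 0 and below it on day 1, and on day 4 the difference was -0.01 ± 0.06. Tested as such, its difference changed since day 0 by -0.62 ± 0.08 on day 1 and -0.34 ± 0.08 on day 4, while 3.48% and 6.91% of all genes had a changed difference. Hspg2 was lower on day 1 (-0.34 ± 0.07) and day 4 (-0.29 ± 0.07), and Serpinh1 on day 0 (-0.53 ± 0.11), with -0.05 ± 0.07 on day 4. Several of the smaller calls ended when 1 library was left out. On day 0, Col4a2 (-0.72 ± 0.21) was -0.51, -0.60, -0.72 and -0.60 with no call without EV replicates 1 or 2 or WT replicates 2 or 3, and -1.10 without EV replicate 3. Lamc1 (-0.23 ± 0.07) was -0.24, -0.17, -0.21 and -0.20 without EV replicates 1 or 3 or WT replicates 1 or 2. The day 1 call of Lamb1 ended without WT replicate 1 (-0.24). On day 4 the calls ended for Col4a1 without EV or WT replicate 2 (-0.25 and -0.26), for Col4a2 without EV replicate 2 (-0.29), for Hspg2 without EV or WT replicate 1 (-0.25 and -0.24) and for Lamc1 without EV replicate 3 or WT replicate 1 (-0.22 each).

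**Figure D4:**
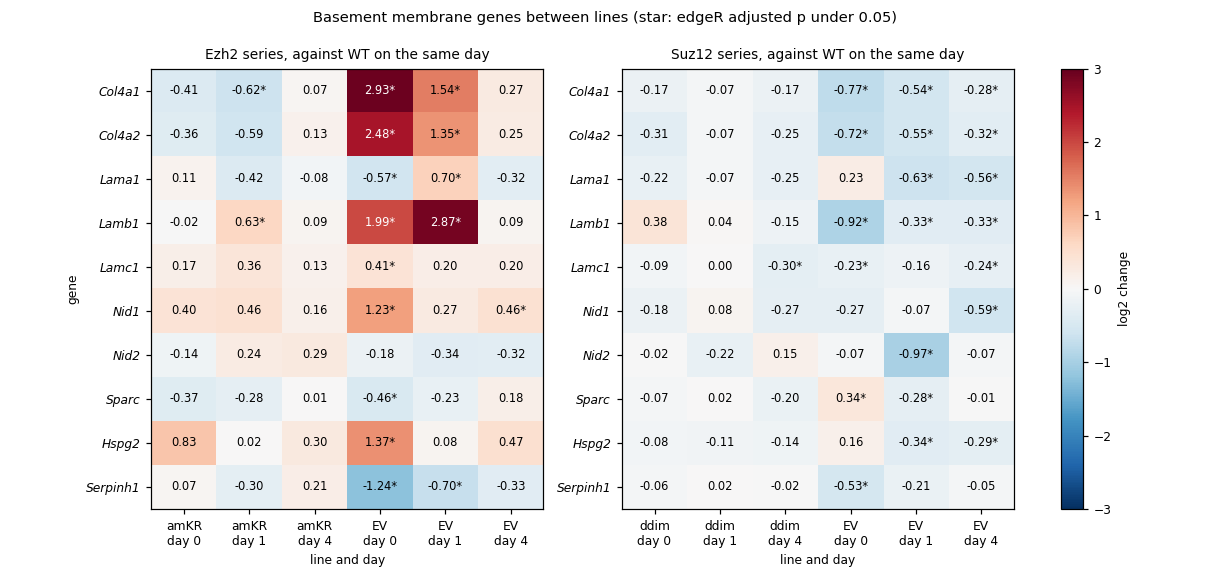
Log2 difference of each mutant and empty-vector line against WT on the same day, with a star where the edgeR adjusted p is under 0.05. Col4a1, Col4a2 and Lamb1 are high in libraries labelled EV of the Ezh2 series on days 0 and 1, and the Suz12-series EV columns are mostly below 0.

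A fit of all libraries tested whether the empty-vector difference itself differed between the series. On day 0 it was higher in the Ezh2 series for 6 members and lower for 3 (19.6% of all genes differed), by 3.64 ± 0.21 for Col4a1, 3.14 ± 0.32 for Col4a2 and 2.85 ± 0.23 for Lamb1. On day 1 it was higher for 4 and lower for 1 (15.6%), by 3.13 ± 0.17 for Lamb1. On day 4 it was higher for 6 and lower for none (15.2%), led by Nid1 with 1.05 ± 0.16. Several of these calls ended when 1 library was left out. On day 4, Lamc1 was 0.30 and Hspg2 0.41 without Ezh2-series EV replicate 1, Lamb1 was 0.27 and Col4a2 0.45 without Ezh2-series EV replicate 2, and Lamb1 and Hspg2 lost the call without several other libraries as well. The day 0 call of Lama1 (-0.84) had values of -0.66 to -0.87 without any of the 8 libraries that ended it, and the day 1 call of Serpinh1 (-0.58) values of -0.48 to -0.55 without any of 5. The genotype of libraries labelled EV of the Ezh2 series is unresolved, and the fit does not remove this.

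The mutants had fewer called differences from WT than the empty-vector lines. Against WT, amKR cells had 0 members called on days 0 and 4 and 2 on day 1, while 4.48%, 1.71% and 1.63% of all genes were called on days 0, 4 and 1. At an unadjusted p under 0.05, 3 members on day 0, 6 on day 1 and 0 on day 4 differed, against 2952, 2449 and 1633 of 14086 genes. DESeq2 called 2 on day 0 and 0 on day 4. Nid1 was nearest to a call on day 0, with 120, 123 and 132 CPM in amKR and 94.6, 87.1 and 102 CPM in WT (log2 0.40 ± 0.12, adjusted p = 0.0539). On day 1 Col4a1 had 16.2, 18.5 and 15.1 CPM in amKR and 24.5, 22.8 and 28.9 CPM in WT (log2 -0.62 ± 0.13, adjusted p = 0.0133), and Lamb1 had 33.1, 31.0 and 31.7 CPM in amKR and 19.6, 19.6 and 22.9 CPM in WT (0.63 ± 0.14, adjusted p = 0.0179). The libraries did not overlap for either gene, as for 23.6% of all genes. Both calls ended when 1 library was left out. Col4a1 was -0.61, -0.55 and -0.53 without amKR replicates 1 or 3 or WT replicate 3, and Lamb1 was 0.59 without amKR replicate 1 and 0.57, 0.58 and 0.68 without WT replicates 1, 2 or 3. On chromosome 8, where Col4a1 lies, the median gene of 744 was at -0.114 in amKR cells on day 1, and with an offset for each chromosome Col4a1 was at -0.48 with no call. Over the members, intervals of 2 SE on either side reached from -0.96 to 1.39 on day 0, from -1.03 to 0.91 on day 1 and from -0.38 to 0.78 on day 4.

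In ddim cells 0 members were called against WT on days 0 and 1 and Lamc1 on day 4, while 0%, 0.0623% and 0.152% of all genes were called on the 3 days. On days 0, 1 and 4, 1, 0 and 5 members had an unadjusted p under 0.05, against 525, 1368 and 1238 of 14442 genes, and DESeq2 called 0 on days 0 and 1. Lamc1 had 959, 1083 and 1025 CPM in ddim and 1296, 1249 and 1222 CPM in WT on day 4 (log2 -0.30 ± 0.07, edgeR adjusted p = 0.0248). The call ended without any of 5 libraries in turn, with -0.26 and -0.30 without ddim replicates 1 or 3 and -0.27, -0.30 and -0.32 without WT replicates 1, 2 or 3. Intervals of 2 SE reached from -0.74 to 0.64 on day 0, from -0.58 to 0.34 on day 1 and from -0.49 to 0.49 on day 4 over the members. On day 4 those of Col4a1, Col4a2, Lama1, Lamc1, Nid1 and Sparc lay wholly below 0, so small decreases are not shown to be absent, and differences beyond the bounds above lie outside the intervals. No member had a mutant difference that changed between days, in either series, by edgeR or DESeq2 (edgeR called 0% and 0.156% of all genes for days 1 and 4 in the Ezh2 series and 0% for both in the Suz12 series). At an unadjusted p under 0.05 2 members differed for each time span in the Ezh2 series, and 1 and 2 in the Suz12 series.

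The mutants were also set against the empty-vector lines. On day 0, amKR cells differed from libraries labelled EV in 6 members (17.5% of all genes), with log2 differences of -3.34 ± 0.15 for Col4a1, -2.84 ± 0.23 for Col4a2 and -2.01 ± 0.17 for Lamb1, and 1.31 ± 0.16 for Serpinh1. On day 1, 4 were lower and none higher (14.7% of all genes), by -2.25 ± 0.13 for Lamb1, -2.15 ± 0.12 for Col4a1, -1.95 ± 0.20 for Col4a2 and -1.11 ± 0.21 for Lama1. On day 4, Serpinh1 (0.54 ± 0.14) and Nid2 (0.61 ± 0.20) were higher (10.8% of all genes). The Serpinh1 call ended without EV replicate 2 (0.44), and that of Nid2 without amKR replicates 1 (0.53), 2 (0.57) or 3 (0.68) or EV replicates 1 (0.59) or 3 (0.49).

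In ddim cells, 3 members were higher and 2 lower than in EV cells on day 0 (11.7% of all genes). Lamb1 had 31.7, 31.7 and 36.2 CPM in ddim and 12.8, 10.7 and 17.0 CPM in EV (1.30 ± 0.15). Sparc had 610, 634 and 683 CPM in ddim and 817, 841 and 897 CPM in EV (-0.41 ± 0.06). Without EV replicate 1 the calls of Col4a1 (0.43 in place of 0.60), Serpinh1 (0.34 in place of 0.47) and Hspg2 (-0.25 in place of -0.23) ended, and that of Hspg2 also ended without EV replicates 2 (-0.21) or 3 (-0.25) or ddim replicates 1 (-0.23) or 2 (-0.18). On day 1, 6 members were higher in ddim and none lower (6.28% of all genes), among them Col4a1 with 423, 351 and 362 CPM in ddim and 284, 271 and 265 CPM in EV (0.47 ± 0.08). The others were Col4a2 (0.48 ± 0.09), Lamb1 (0.37 ± 0.08), Sparc (0.30 ± 0.06), Lama1 (0.56 ± 0.14) and Nid2 (0.75 ± 0.20). Lama1 lost its call without ddim replicate 1 (0.48) or EV replicates 2 (0.54) or 3 (0.53), and Nid2 without ddim replicates 1 (0.61) or 3 (0.73) or EV replicates 2 (0.74) or 3 (0.68). On day 4, Nid1 was higher (0.32 ± 0.09) and Sparc lower (-0.20 ± 0.06) in ddim (11.4% of all genes). Nid1 lost its call without ddim replicate 2 (0.26) or EV replicates 1 (0.30) or 3 (0.31), and Sparc without ddim replicates 1 (-0.17) or 3 (-0.16) or EV replicate 1 (-0.16).

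The remaining genes of basement membrane assembly were read from 4 lists chosen by function, and the counts by day 4 stand against 57% (Ezh2 series) and 73.6% (Suz12 series) of all genes changed in either direction in WT cells. In Ezh2-series WT cells, 12 of 22 tested genes for other basement membrane components were higher on day 4 than on day 0 and 3 were lower, and in Suz12-series WT cells 18 of 23 were higher and 2 lower. Fn1, fibronectin, fell to 213 ± 36.6 CPM on day 4, against 705 ± 24.5 CPM on day 0 in the Ezh2 series (log2 -1.73 ± 0.11). Of collagen processing and crosslinking genes, 13 of 20 rose and 2 fell in the Ezh2 series and 19 of 24 rose and 1 fell in the Suz12 series. Loxl2, a lysyl oxidase that crosslinks collagen IV, averaged 649 ± 21.9 CPM on day 4 and 1.87 ± 0.259 CPM on day 0 in Suz12-series WT cells (8.41 ± 0.13). Pxdn, peroxidasin, which forms the sulfilimine crosslink of collagen IV, averaged 37.5 ± 8.84 and 0.748 ± 0.463 CPM on days 4 and 0 in Ezh2-series WT cells (5.59 ± 0.34).

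Most of the tested receptors for basement membrane rose, and a few fell. Of those tested, 10 of 12 rose and Itga6 fell in Ezh2-series WT cells by day 4, and 9 of 14 rose and 2 fell in Suz12-series WT cells. Ddr1, a collagen receptor kinase, averaged 60.1 ± 10.0 CPM on day 4 and 8.34 ± 0.332 CPM on day 0 in the Ezh2 series (2.85 ± 0.20), and 386 ± 24.7 and 54.8 ± 5.65 CPM in the Suz12 series (2.82 ± 0.13). Itga6, the α6 chain of laminin-binding integrins, averaged 185 ± 10.8 CPM on day 4 and 443 ± 20.6 CPM on day 0 in the Ezh2 series (-1.26 ± 0.08). Of matrix proteases and their inhibitors, 12 of 13 and 12 of 14 rose and 1 fell in each series. Serpine2, a protease inhibitor, averaged 93.7 ± 7.95 CPM on day 4 and 3.59 ± 1.89 CPM on day 0 in the Ezh2 series (4.69 ± 0.24), and Timp2, an inhibitor of metalloproteases, averaged 493 ± 8.04 and 2.76 ± 0.599 CPM in the Suz12 series (7.47 ± 0.14).

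Between lines, these lists were less uniform than over time. On day 0 the libraries labelled EV of the Ezh2 series had 7 of 22 other components higher and 2 lower than WT, against 29.3% of all genes called, led by Lama5, a laminin α5 chain, with 79.6 ± 16.9 CPM and 19.2 ± 7.34 CPM in WT (2.05 ± 0.22). On day 1, 6 of 20 collagen processing genes were higher and none lower (20.9% of all genes called), among them Plod2, a lysyl hydroxylase of collagen, with 51.1 ± 2.3 CPM in libraries labelled EV and 15.9 ± 1.78 CPM in WT (1.68 ± 0.15). The Suz12 series had 3 of 24 collagen processing genes higher and 4 lower in EV than in WT cells on day 4 (7.64% of all genes called), and Loxl2 was lower, with 469 ± 11.2 CPM in EV and 649 ± 21.9 CPM in WT (-0.47 ± 0.07).

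Markers of the cell types that make or could hold these genes were read beside them, against the same 57% and 73.6% of all genes. All 8 primitive endoderm regulators rose by day 4 in both WT lines, and their summed level was 1.14 to 4.75 CPM on day 0, 6.07 to 10.1 CPM on day 1 and 1052 to 1193 CPM on day 4 in the Ezh2 series. In the Suz12 series the ranges were 8.76 to 9.37 CPM, 890 to 984 CPM and 1035 to 1083 CPM, so these regulators were near their day 4 level on day 1 there. All 11 parietal endoderm markers rose by day 4 in both WT lines, with sums of 1357 to 1774 CPM on day 4 and 197 to 243 CPM on day 0 in the Ezh2 series, and 3162 to 3280 CPM on day 4 and 389 to 427 CPM on day 0 in the Suz12 series. Some of the 11, such as Vim, were expressed on day 0, while Thbd and Plat had no count on day 0 in Ezh2-series WT libraries. Sox7 stands in both lists. Naive pluripotency markers fell, all 8 in both WT lines. Parietal endoderm markers thus rose by day 4 as most members did, and markers of other lineages rose with them. The lists were chosen with earlier results of these data known, so no cell type is named from these counts. Visceral endoderm markers rose in 10 and 9 of 11 and smooth muscle markers in 6 of 6 in the 2 WT lines, and fibroblast markers in 4 of 5 and 7 of 8 tested. The summed smooth muscle level reached 1115 to 1500 CPM and 4708 to 5342 CPM on day 4, and the summed fibroblast level 200 to 244 CPM and 1430 to 1596 CPM, in Ezh2-series and Suz12-series WT cells. Fibroblasts and smooth muscle also make collagen IV and laminin, and their part in the members' rise was not tested. Endothelial markers had sums of 7.29 to 11.2 CPM on day 4 and 238 to 289 CPM on day 0 in Ezh2-series WT cells, with Cdh5, Tie1 and Emcn at 0 on day 0. The sums of 6 neural markers were 223 to 284 CPM on day 4 and 49.1 to 55.3 CPM on day 0 in Ezh2-series WT cells. In Suz12-series WT cells they were 181 to 202 CPM on day 4 and 76.2 to 102 CPM on day 0.

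Endoderm markers differed between lines in some of the comparisons where members did, and in others where they did not. On day 1 all 8 primitive endoderm regulators were higher in libraries labelled EV of the Ezh2 series than in WT (20.9% of all genes called), with sums of 170 to 187 CPM and 6.07 to 10.1 CPM in WT. Parietal endoderm sums were 351 to 373 CPM in libraries labelled EV and 236 to 280 CPM in WT, with 6 of 11 markers higher. On day 0, 4 of 8 regulators were higher (29.3% of all genes called), with sums of 13.6 to 17.7 CPM in libraries labelled EV and 1.14 to 4.75 CPM in WT, while parietal endoderm sums overlapped, at 161 to 216 CPM and 197 to 243 CPM in WT. On day 4 regulators summed to 705 to 787 CPM in libraries labelled EV, to 1588 to 1863 CPM in amKR and to 1052 to 1193 CPM in WT, and visceral endoderm markers to 420 to 505 CPM in amKR and 191 to 206 CPM in WT, with no member called in amKR. In the Suz12 series on day 0, parietal endoderm sums were higher in EV, at 551 to 695 CPM against 389 to 427 CPM in WT, where 5 members were lower. In EV cells of the Suz12 series on day 4, 5 of 11 parietal markers and 4 of 6 smooth muscle markers were lower than in WT, against 7.64% of all genes called. Their part in the differences of the members was not tested.

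Likeness of pattern was measured over the 9 group means of each series, which share libraries and line effects. The mean of the 10 members correlated most with Nexn, Prss23, Piezo2, Col12a1, Ankrd1, Nkd1, Phldb2, Hand2, P4hb and St3gal5 among 9554 genes ranked, with Pearson's r between 0.989 and 0.997. P4hb is the β subunit of collagen prolyl hydroxylase, and it averaged 368 CPM on day 4 and 177 CPM on day 0 in Ezh2-series WT cells. Among the members, Nid1 and Nid2 departed from the mean of the 10, with r of -0.073 and -0.215 in the Ezh2 series and -0.001 and 0.12 in the Suz12 series, and the other 8 had r from 0.861 to 0.989. Each member is part of that mean, so its r with the mean is not independent of its own values. Against Col4a1 alone, r in the Ezh2 and Suz12 series was 0.98 and 1.00 for Lamb1, 0.72 and 0.99 for Lama1 and 0.81 and 1.00 for Serpinh1. In the authors' deposited table of genes up in WTvsKO on day 0, which holds 1004 symbols, 5 members stood (Col4a1, Col4a2, Lamb1, Nid1 and Hspg2), and Serpinh1 stood in the authors' deposited table of 395 genes down. The authors' deposited table for day 1, up, holds Col4a1, Col4a2 and Lamb1 among 882 symbols, and the authors' deposited tables for day 4 and for amKR hold no member.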

How the data were processed

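Gene counts were measured in 54 QuantSeq libraries. Per the labels, 3 libraries make up each of 18 groups. The counts per gene that the authors deposited are whole numbers without normalization, for 55487 gene IDs. Symbols came from the GENCODE annotation of GRCm38, which matched 55141 of them. The submitters' processing notes name the build mm10, and the aligner, annotation and counting program are not given in the sources used here. The authors also deposited 12 lists of gene symbols (other, without values). Rows of the count tables that name no gene, with 14.548% to 22.746% of reads outside features (Ezh2 series) and 13.355% to 19.833% (Suz12 series), were left out.

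The 27 libraries of a series shared a fit in edgeR 4.0.16 under R 4.3.3 (robust quasi-likelihood, filterByExpr, TMM, 1 mean per group), which tested 14086 genes (Ezh2 series) and 14442 genes (Suz12 series). A joint fit of 54 libraries and 15371 genes gave the differences between series. Tests were two-sided, p-values were adjusted by Benjamini and Hochberg over all genes tested. A call is an adjusted p under 0.05. P-values measure only the spread between these libraries, which may be technical. Alternatives included DESeq2 1.42.0, other scalings, no filter on low counts, a replicate block, a chromosome offset and leaving out each library. The script was tested on simulated data. No pair of replicates agreed within sampling noise.

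The members and gene lists were chosen with earlier results of these data known. All 10 members are given, and from other lists up to 3 genes each way were eligible, those with the largest change among called genes without overlap between groups and with a mean of at least 5 CPM, from which those with counts in both groups were described. The 10 genes most alike in pattern were ranked by the lower of the 2 correlations. One gene that the rule names is not reported here.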

Additional observations from a re-analysis of the deposited data

Results flagged for a closer look

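Each value here is a difference of log2 changes that passed its own test (edgeR, adjusted p under 0.05), which is why it is listed. They are given as values, with the libraries whose removal ended a call.

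Within the Ezh2 series, the difference of libraries labelled EV from WT (signed log2, EV minus WT) was lower on day 1 than on day 0 for Col4a1 (-1.39), Col4a2 (-1.13) and Nid1 (-0.96), and higher for Lama1 (1.26) and Lamb1 (0.88). The call for Col4a2 ended without EV day 0 replicate 3 (-1.02), EV day 1 replicate 1 (-0.92), WT day 0 replicates 1 (-0.99) or 2 (-1.02) or WT day 1 replicate 1 (-1.09). That for Lamb1 ended without EV day 1 replicate 3 (0.80), WT day 0 replicate 1 (0.65) or WT day 1 replicates 1 (0.82) or 2 (0.83). On day 4 the signed difference was lower than on day 0 for Col4a1 (-2.66), Col4a2 (-2.23), Lamb1 (-1.90) and Nid1 (-0.77), and higher for Sparc (0.64) and Serpinh1 (0.91), both below WT on day 0, where Sparc lost its call without EV day 0 replicate 1 (0.54), EV day 4 replicate 2 (0.49) or WT day 0 replicate 2 (0.51).

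Within the Suz12 series, the difference of EV from WT cells was lower on day 1 than on day 0 for Nid2 (-0.90), Sparc (-0.62) and Hspg2 (-0.49). The Nid2 call, on a gene whose 3′ end overlaps Rtraf, ended without EV day 0 replicates 2 (-0.82) or 3 (-0.89), EV day 1 replicates 1 (-0.98), 2 (-0.89) or 3 (-0.83), WT day 0 replicates 2 (-0.86) or 3 (-0.85), or WT day 1 replicates 1 (-0.90) or 2 (-0.87). On day 4 it was higher than on day 0 for Lamb1 (0.59) and Serpinh1 (0.47), and lower for Hspg2 (-0.44) and Sparc (-0.34). Serpinh1 lost its call without EV day 0 replicate 1 (0.34) or WT day 0 replicates 1 (0.43) or 3 (0.36). Lamb1 lost it without EV day 0 replicates 1 (0.55) or 2 (0.44), EV day 4 replicate 3 (0.56), WT day 0 replicates 1 (0.55) or 3 (0.57) or WT day 4 replicates 2 (0.57) or 3 (0.55).

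Between the series, in the fit of all libraries, the EV difference on day 0 was higher in the Ezh2 series for Col4a1 (3.64), Col4a2 (3.14), Lamb1 (2.85), Nid1 (1.45), Hspg2 (1.16) and Lamc1 (0.59), and lower for Sparc (-0.85), Lama1 (-0.84) and Serpinh1 (-0.77). Lama1 lost its call without Ezh2-series EV replicates 1 (-0.73) or 2 (-0.75), WT replicates 1 (-0.83) or 2 (-0.76), or Suz12-series EV replicates 1 (-0.68) or 2 (-0.80) or WT replicates 2 (-0.66) or 3 (-0.87). On day 1 the values were 3.13 for Lamb1, 1.99 for Col4a1, 1.83 for Col4a2, 1.25 for Lama1 and -0.58 for Serpinh1, whose call ended without Ezh2-series EV replicates 1 (-0.48) or 2 (-0.54), WT replicates 1 (-0.52) or 2 (-0.48), or Suz12-series WT replicate 3 (-0.55). On day 4 they were 1.05 for Nid1, 0.75 for Hspg2, 0.56 for Col4a2, 0.54 for Col4a1, 0.44 for Lamc1 and 0.41 for Lamb1. Without Ezh2-series EV replicate 1 Hspg2 was 0.41 and Lamc1 0.30, and without Ezh2-series EV replicate 2 Lamb1 was 0.27 and Col4a2 0.45, all with no call. Hspg2 also lost its call without Ezh2-series WT replicates 2 (0.64) or 3 (0.65), Suz12-series EV replicates 1 (0.71) or 2 (0.77) or WT replicates 1 (0.71) or 2 (0.73). Lamb1 lost it also without Ezh2-series EV replicate 3 (0.41), WT replicates 1 (0.36) or 3 (0.39), Suz12-series EV replicates 1 (0.41), 2 (0.40) or 3 (0.44), or WT replicates 1 (0.38) or 2 (0.42).

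The change of WT cells from day 0 to day 1 was lower in the Ezh2 than in the Suz12 series for Lama1 (-6.03), Serpinh1 (-3.66), Lamb1 (-2.51), Col4a2 (-2.36), Col4a1 (-2.04) and Lamc1 (-0.62), and higher for Nid1 (1.23). From day 0 to day 4 it was lower for Serpinh1 (-2.38), Lama1 (-2.37), Nid1 (-0.96), Sparc (-0.42) and Lamc1 (-0.35), and higher for Lamb1 (1.69), Col4a1 (1.16) and Col4a2 (0.74). Lamc1 lost its call without Ezh2-series day 0 replicates 1 (-0.25), 2 (-0.31) or 3 (-0.28), day 4 replicate 3 (-0.25), Suz12-series day 0 replicate 3 (-0.30) or day 4 replicate 1 (-0.33). Sparc lost it without Ezh2-series day 0 replicate 2 (-0.24) or day 4 replicates 1 (-0.32) or 3 (-0.34). Col4a2 lost it without Ezh2-series day 0 replicates 1 (0.66) or 2 (0.68), day 4 replicate 2 (0.63) or Suz12-series day 0 replicate 3 (0.62), and was 1.11 without Ezh2-series day 0 replicate 3.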

How the results depend on the processing

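No called change of a member reversed under any alternative run. Without the filter on low counts 412 gene-level results kept their status, whether called or not called, while 4 calls were lost and 14 gained. The number kept thus includes results not called in either run, and it is not a number of calls. With DESeq2 the counts were 366, 4 and 10, and with 1 library left out 3183, 146 and 31. The replicate block left the status of 426 results unchanged, ended 2 calls and added 2. It moved the number of members called in amKR against WT cells on day 0 to 1 (Nid1), from 0 without it. Same-numbered replicates deviated together in 2 of 36 group pairs (Ezh2 series) and 0 of 36 (Suz12 series), so the numbers were not taken as pairs. The number of members called in amKR against WT on day 0 was 2 with DESeq2 or no filter, 3 with only the groups compared and 1 with total counts. On day 1 it was 1, in place of 2, with the chromosome offset or only the groups compared. For libraries labelled EV against WT on day 4 it was 2, in place of 1, with the chromosome offset, DESeq2, RLE or total counts, and 0 with only the groups compared. For amKR against EV on day 4 it was 1, in place of 2, with DESeq2, no filter, only the groups compared, RLE, total counts or ordinary empirical Bayes, an alternative chosen after seeing the data. For ddim against WT on day 4 it was 2 with DESeq2 or only the groups compared and 0 with ordinary empirical Bayes or total counts, in place of 1, and for ddim against EV on day 4 it was 1 with total counts, in place of 2. The cause of these moves was not tested. With 1 library left out the numbers ran from 1 to 1 for amKR against EV on day 4, 0 to 2 for amKR against WT on day 1, 1 to 2 for libraries labelled EV against WT on day 4, 3 to 6 for the change of that difference by day 1, 2 to 5 and 0 to 3 for ddim against EV on days 0 and 4, 0 to 1 for ddim against WT on day 4, 2 to 8 for the change of the Suz12-series EV difference by day 4 and 5 to 8 for the difference between series in the WT change by day 4. Total-count scaling moved the median member by 0.12 in Suz12-series WT cells on day 1 against day 0, by 0.14 in ddim cells and by -0.18 in the difference between series. Depth limits the members at low counts, such as Col4a2 with 14 counts in an amKR library on day 0.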
